A study of Solanum lycopersicum with 6 samples.

Results

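Transcripts of 10 tomato genes that cleave or carry sucrose were followed in dormant axillary buds, out of 34075 genes listed in each deposited table. The genes were chosen by their gene IDs, as members of these families, with earlier results of these data known. They are the cell wall invertases LIN5, LIN6, LIN7 and LIN8, the vacuolar invertase TIV1, the sucrose synthases SUS1 and SUS3, and the sucrose transporters SUT1, SUT2 and SUT4. Both tables held all 10 IDs, and 9 of the genes were detected, that is, had a log fold change other than 0. The exception was LIN5 (Solyc09g010080.3), which was listed at 0 in both comparisons.

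Buds were taken 25 days after germination from 3 genotypes in the cultivar labelled MT, with 2 samples each. The rSBP15 plants are known from the study to overexpress a form of the transcription factor gene SBP15 that the microRNA miR156 cannot target. The miR156-OE plants, 156OE in the sample titles, are known from the study as overexpressors of that microRNA. The wild type, MT, was the control of both. Each sample pooled about 20 dormant buds from 4 to 5 greenhouse plants, and the promoters of the transgenes and the number of independent lines are not given in the sources used here. The study set out to compare bud transcriptomes between the genotypes. Since each sample is a pool of whole buds, a change in the share of a cell type and a change in RNA per cell cannot be told apart.

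Sucrose is the main form in which carbon reaches a sink organ through the phloem. At the sink it is split either by an invertase, irreversibly, into glucose and fructose, or by a sucrose synthase, reversibly, into fructose and UDP-glucose, a precursor of cell wall polymers and starch. Cell wall invertases act outside the plasma membrane, vacuolar invertases act in the vacuole, and sucrose transporters of the SUT family carry sucrose together with protons across membranes. Sugar supply to an axillary bud is one of the signals that bear on whether the bud grows out or stays dormant.

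The authors deposited, for each line set against MT, every gene's log fold change and p-value, and these are the measurements used here. Which base the logarithm has is not stated, and sequencing depth and expression levels are unknown, so no gene can be called more or less abundant than another, and the tissue could not be checked against marker genes. No ID in the tables is paired with the SBP15 transgene or with a miR156 gene, so the genotype labels were not checked in that way. Standard errors and 95% intervals were recovered from the deposited values, and adjusted p-values (limma-type test, Benjamini-Hochberg) cover all detected genes, 25329 for rSBP15 and 24920 for miR156-OE. The threshold was an adjusted p of 0.05.

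In rSBP15 buds the sucrose synthase SUS1, the transporter SUT1 and the vacuolar invertase TIV1 rose, while no cell wall invertase passed the threshold in either direction. These 3 of the 9 detected genes stand beside 5.58% of all detected genes with an adjusted p under 0.05 in this comparison (2.65% counting rises alone). At an unadjusted p under 0.05 there were 7 of 9 genes, 5 higher and 2 lower in rSBP15, beside 33.3% of all detected genes. In miR156-OE buds 0 of the 9 genes passed the threshold in the limma-type test, beside 0.0201% of all detected genes, and 2 of 9 had an unadjusted p under 0.05, both higher, beside 13.2%. Refitting the variance moderation gave 4 of 9 genes in rSBP15, beside 14.7% of all detected genes, and so did a fit of all 6 libraries at its largest residual variance, beside 11.2%. At its smallest residual variance that fit gave 6 of 9 in rSBP15, beside 19.7%, and 0 of 9 in miR156-OE, beside 0.891%. The calls of SUS1, SUT1 and TIV1 in rSBP15 were all lost, leaving 0 of 9, with all rows of the table in the adjustment, with no moderation and at a threshold of 0.01. The share of all detected genes that passed in these settings was not counted. Whether the loss was particular to these genes was thus not tested. The median log fold change of the 9 genes was 0.14 in rSBP15 and 0.0751 in miR156-OE, beside 0.0005 and -0.0006 over all detected genes. The median size, sign aside, was 0.259 in rSBP15 and 0.0751 in miR156-OE, beside 0.109 and 0.0596 over all detected genes.

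**Figure D1:**
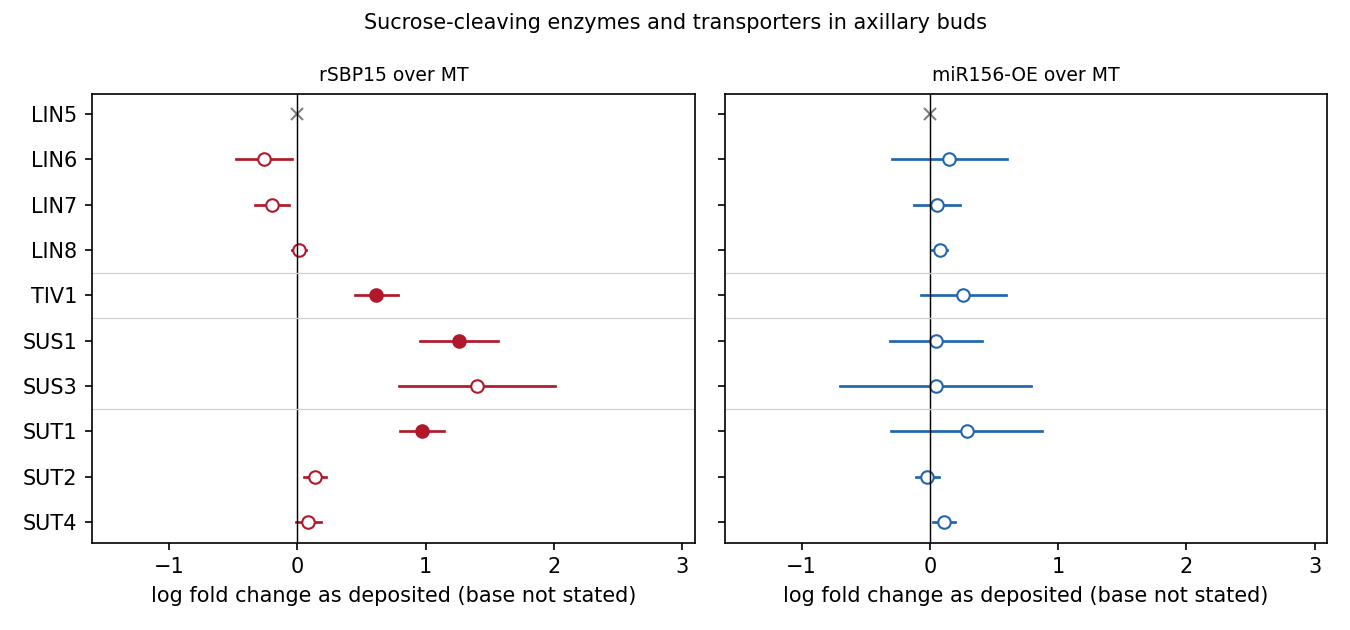
Log fold change as deposited (horizontal axis, base not stated) of each gene in rSBP15 over MT (left) and miR156-OE over MT (right), 2 samples per genotype. Points are the deposited values, lines the recovered 95% intervals, filled points have an adjusted p under 0.05 and crosses mark LIN5, listed at 0. TIV1, SUS1 and SUT1 are filled on the left, at 0.62, 1.26 and 0.97, and no point is filled on the right.

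Although the tables list no value per library, the spread between libraries can be bounded from them. Both comparisons rest on the same MT libraries, so the 2 recovered standard errors of a gene limit how far apart the 2 libraries of each genotype can lie. These bounds are given below on the log scale of the deposited values, relative to the mean of the MT libraries. For 7 of the 9 detected genes the rSBP15 libraries lay clear of all miR156-OE and MT libraries, 5 above them (TIV1, SUS1, SUS3, SUT1 and SUT2) and 2 below them (LIN6 and LIN7). The same held for 39.8% of the 25657 genes detected in at least 1 comparison, so such a separation was common in these buds.

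**Figure D2:**
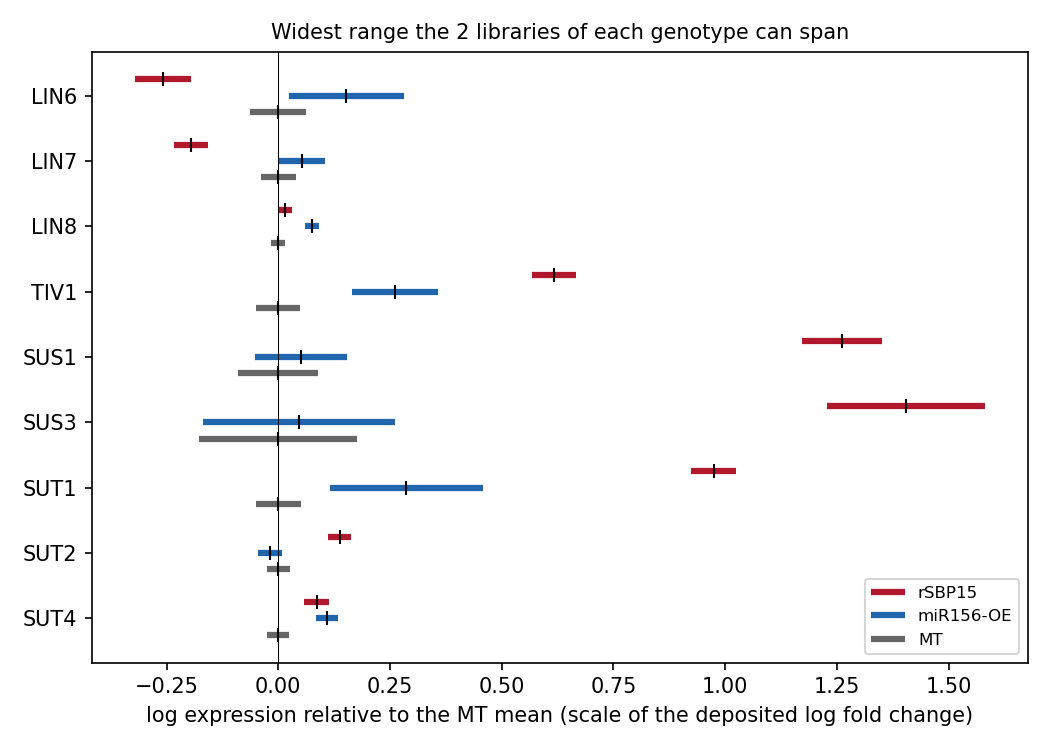
Widest range that the 2 libraries of each genotype can span, as log expression relative to the MT mean (horizontal axis), for the 9 detected genes. Bars are these ranges and ticks the genotype means. The rSBP15 bars of SUS1 and SUS3 begin at 1.17 and 1.23, to the right of every miR156-OE and MT bar of these genes.

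The largest differences among the 10 genes were those of the sucrose synthases in rSBP15. For SUS1 (Solyc12g009300.3) the rSBP15 libraries lay between 1.17 and 1.35 above the MT mean, the miR156-OE libraries between -0.05 and 0.15, and the MT libraries between -0.09 and 0.09. The rSBP15 libraries were thus apart from the other 4, whose ranges overlapped. The authors' deposited table gave SUS1 a log fold change of 1.26 in rSBP15 (standard error 0.0891, interval 0.96 to 1.57). Its adjusted p was 0.0452, and the alternatives gave 0.00724 to 0.107. This size exceeded that of 98.5% of all detected genes. For miR156-OE the authors' deposited table gave 0.0508, with an interval of -0.31 to 0.41 and an adjusted p of 0.862.

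SUS3 (Solyc07g042550.3), the second sucrose synthase, had the largest log fold change of the 10 genes but also the widest spread. Its rSBP15 libraries lay between 1.23 and 1.58, its miR156-OE libraries between -0.17 and 0.26, and its MT libraries between -0.18 and 0.18. As for SUS1, the rSBP15 libraries did not overlap with any other. The authors' deposited table gave it a log fold change of 1.40 in rSBP15 (standard error 0.177, interval 0.80 to 2.01). The adjusted p of 0.0670 missed the threshold, and the alternatives gave 0.0155 to 0.132, so that the call depended on the test. The value for miR156-OE in the authors' deposited table was 0.0460, with an interval of -0.70 to 0.79, which is too wide to tell a small change from none. How reads were divided between similar genes such as these 2 is not given in the sources used here, and whether reads of one were counted to the other was not tested.

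Among the transporters, SUT1 (Solyc11g017010.2), the family member that loads sucrose into the phloem in solanaceous plants, rose in rSBP15 and had the smallest p-value of the 10 genes. The rSBP15 libraries lay between 0.92 and 1.02, the miR156-OE libraries between 0.12 and 0.46, and the MT libraries between -0.05 and 0.05. The rSBP15 libraries were the highest and the MT libraries the lowest, with no overlap between any of the genotypes. How common such an order was among all genes was not counted. The authors' deposited table gave SUT1 a log fold change of 0.97 in rSBP15 (standard error 0.04997, interval 0.80 to 1.15). Its adjusted p was 0.0386, and the alternatives gave 0.0197 to 0.0999. Its miR156-OE value in the authors' deposited table was 0.29, with an interval of -0.30 to 0.88 and an adjusted p of 0.598. The 2 miR156-OE libraries differed from each other by at least 0.326 in this gene, which is more than the difference of their mean from MT.

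The other two transporters did not pass the threshold in either line. SUT2 (Solyc05g007190.4), a plasma membrane member of the family, had rSBP15 libraries between 0.112 and 0.163, miR156-OE libraries between -0.0446 and 0.0072, and MT libraries between -0.0256 and 0.0256. The authors' deposited table gave SUT2 a log fold change of 0.14 in rSBP15 (standard error 0.0257), with an adjusted p of 0.0956 and 0.0290 to 0.165 under the alternatives. The value was small, close to the median size over all detected genes, but the libraries were tightly grouped. For miR156-OE the authors' deposited table gave SUT2 -0.0187 (adjusted p 0.788). SUT4 (Solyc04g076960.4), of a separate clade of the family, was at 0.0855 in rSBP15 and 0.11 in miR156-OE per the authors' deposited tables, with adjusted p-values of 0.177 and 0.318. Libraries of both lines lay above those of MT in this gene, and the widest ranges of the lines overlapped with each other. The share of all genes with both lines apart from MT was not counted.

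TIV1 (Solyc03g083910.5), the vacuolar acid invertase known from tomato fruit, was the invertase that rose. Its rSBP15 libraries lay between 0.57 and 0.67, its miR156-OE libraries between 0.17 and 0.36, and its MT libraries between -0.05 and 0.05. The 3 genotypes did not overlap, with rSBP15 highest and MT lowest, and the share of all genes separated in this way was not counted. The authors' deposited table gave TIV1 a log fold change of 0.62 in rSBP15 (standard error 0.0491, interval 0.45 to 0.79). Its adjusted p of 0.0494 was just under the threshold, and the alternatives gave 0.0159 to 0.112. Its miR156-OE value in the authors' deposited table was 0.26, with an interval of -0.07 to 0.59 and an adjusted p of 0.441.

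None of the cell wall invertases passed the threshold in either line, and the log fold changes of LIN6 and LIN7 in rSBP15 were negative. In the RefSeq gene table of assembly SLM_r2.1, LIN5 and LIN7 are neighbours with 0 protein-coding genes between them, and so are LIN6 and LIN8. LIN6 (Solyc10g083290.4), a sink tissue invertase, had rSBP15 libraries between -0.32 and -0.20, miR156-OE libraries between 0.0232 and 0.28, and MT libraries between -0.06 and 0.06. The rSBP15 libraries were the lowest, and those of miR156-OE and MT could overlap. The authors' deposited tables gave LIN6 log fold changes of -0.26 in rSBP15 and 0.15 in miR156-OE, with adjusted p-values of 0.125 and 0.709. Its neighbour LIN8 (Solyc10g083300.2) was at 0.0155 in rSBP15, where its libraries overlapped with those of MT, and at 0.0751 in miR156-OE, per the authors' deposited tables. The miR156-OE libraries of LIN8 lay between 0.0591 and 0.0910, above all others. Its rSBP15 libraries lay between -0.0003 and 0.0313, and its MT libraries between -0.0158 and 0.0158. The share of all genes with miR156-OE apart from both others was not counted. The adjusted p-values of LIN8 were 0.518 and 0.312, and the authors' deposited table listed an unadjusted p of 0.0260 for it in miR156-OE.

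LIN7 (Solyc09g010090.5.1), known from tomato flowers, had rSBP15 libraries between -0.23 and -0.16, miR156-OE libraries between 0.0016 and 0.11, and MT libraries between -0.04 and 0.04. As for LIN6, the rSBP15 libraries lay below all others. The authors' deposited tables gave LIN7 log fold changes of -0.20 in rSBP15 and 0.0536 in miR156-OE, with adjusted p-values of 0.102 and 0.724. Under the alternatives the rSBP15 value ranged from 0.0461 to 0.172. Its neighbour LIN5, known for its effect on the sugar content of tomato fruit, is the gene listed at 0 in both of the authors' deposited tables. Genes listed at 0 made up 25.7% of the rSBP15 table and 26.9% of the miR156-OE table, and their value was assumed not to differ between the libraries compared.

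**Figure D3:**
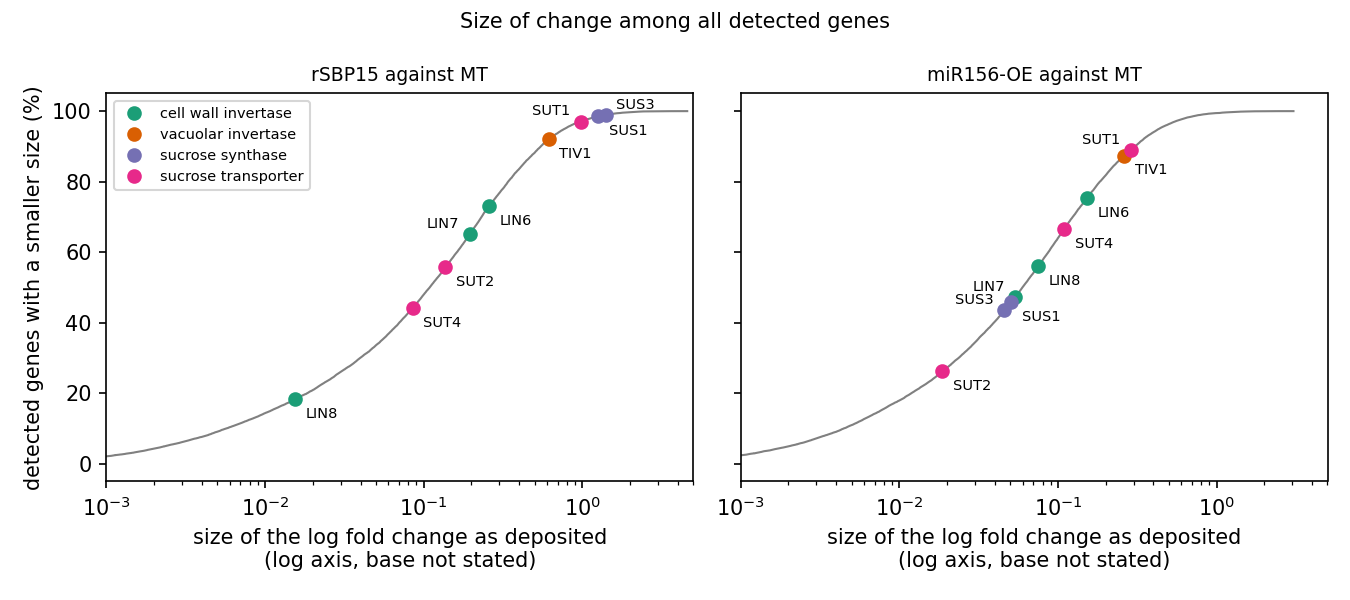
Size of the log fold change as deposited (horizontal log axis, base not stated) against the percentage of detected genes with a smaller size (vertical axis), for rSBP15 against MT (left) and miR156-OE against MT (right). The grey line is all detected genes and the points are the 9 detected genes, coloured by class. SUS3, SUS1, SUT1 and TIV1 stand above 98.95%, 98.5%, 97.1% and 92.1% of genes in rSBP15, while in miR156-OE SUT1 stands highest at 88.9%.

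By size of change in rSBP15 the order ran from SUS3 over SUS1, SUT1 and TIV1 to LIN6, LIN7, SUT2, SUT4 and LIN8, the last 5 between 73.0% and 18.3%. The intervals of SUS3, SUS1 and SUT1 all overlapped, and differences between these genes were not tested. In miR156-OE the sucrose synthases lay near the middle, SUS1 above 45.8% and SUS3 above 43.5% of detected genes, and SUT1 and TIV1 stood highest, at 88.9% and 87.4%.

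The 2 lines were then compared directly through the difference of their log fold changes, in which MT cancels. With the residual variance at the largest value the tables allow, 0 of the 9 genes and 0% of the 25657 genes passed the threshold in limma's moderated test. At an unadjusted p under 0.05 there were 7 of 9, with rSBP15 above miR156-OE in 5 and below it in 2, beside 21.7% of all genes. In the fit of all 6 libraries at the largest residual variance, 4 of the 9 genes passed, all higher in rSBP15, beside 14.4% of all genes (7.39% counting rises alone). These were SUS1, SUS3, SUT1 and SUT2. The 6-library fit pools the spread of all 3 genotypes as if it were equal. Its largest residual variance lies below that of the moderated test above, so it is the less cautious test. At the smallest residual variance 6 of 9 passed, beside 23.2%.

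SUS1 was higher in rSBP15 than in miR156-OE by 1.21 on the log scale, with an interval of 0.83 to 1.59. Its adjusted p was 0.103 with the 4 libraries and 0.0133 with all 6, each at the largest variance of its own fit. The alternatives gave 0.00562 to 0.334. SUS3 was higher by 1.36, with an interval of 0.60 to 2.12 and adjusted p-values of 0.134 and 0.0324 in the same fits, among alternatives of 0.0140 to 0.343. For SUT1 the difference was 0.69, with an interval of 0.20 to 1.18 and adjusted p-values of 0.164 and 0.0486, and the alternatives ran from 0.0331 to 0.365. SUT2 differed by 0.16, with an interval of 0.0332 to 0.28 and adjusted p-values of 0.181 and 0.0488, among alternatives of 0.02002 to 0.351.

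TIV1 differed between the lines by 0.36, with an interval of 0.0549 to 0.66, and its adjusted p was 0.193 with the 4 libraries and 0.0654 with all 6. The cell wall invertases LIN6 and LIN7 were at -0.41 and -0.25 in rSBP15 relative to miR156-OE. Their intervals ran from -0.81 to -0.0128 and from -0.44 to -0.0575, with adjusted p-values of 0.223 and 0.177 (0.0857 and 0.0524 with all 6 libraries). LIN8 and SUT4 had intervals that included 0, from -0.15 to 0.0352 and from -0.15 to 0.10, which allow differences of up to 0.15 in size in either gene.

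**Figure D4:**
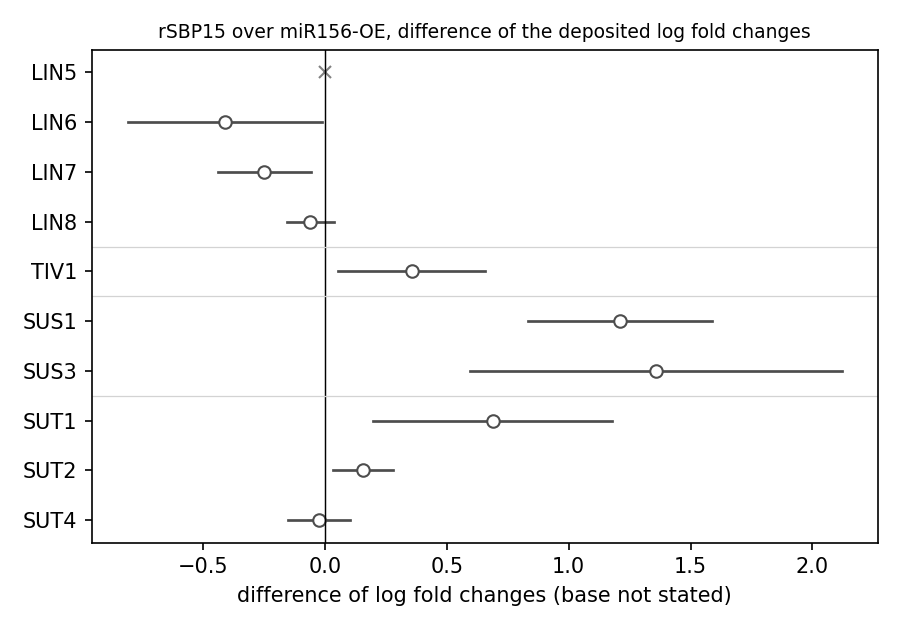
Difference between rSBP15 and miR156-OE in the deposited log fold changes (horizontal axis, base not stated) for each gene, with lines for the 95% interval at the largest residual variance the tables allow. Open points have an adjusted p of 0.05 or more and the cross marks LIN5, listed at 0. SUS1, SUS3 and SUT1 lie furthest to the right, at 1.21, 1.36 and 0.69, while LIN6 and LIN7 lie to the left of 0.

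Beyond these genes, a list of 10 further IDs of the sucrose pathway was drawn up from general knowledge of tomato sucrose synthesis, cleavage, invertase inhibition and sugar transport. The files do not pair these IDs with names, so they are given without roles. In rSBP15, 9 of the 10 had a positive log fold change, beside 50.5% of all detected genes, and the median of the 10 was 0.59. Of the positive values, those of Solyc09g074530.3 (0.0039) and Solyc02g079220.4 (0.0362) were close to 0. Since the list mixes synthesis, cleavage and invertase inhibition, these values do not give a direction for the pathway. Of the 10, 1 rose, beside 5.58% of all detected genes called (2.65% counting rises alone). At an unadjusted p under 0.05 there were 6, all higher, beside 33.3% of all detected genes in either direction. The ID that rose was Solyc07g007790.3, for which the authors' deposited table gave 0.65 (standard error 0.0272, interval 0.56 to 0.75). Its adjusted p was 0.0340, and the alternatives gave 0.0101 to 0.0940.

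In miR156-OE, 9 of these 10 IDs were detected, 5 with a positive and 4 with a negative log fold change, and 0 passed the threshold in the limma-type test. The smallest adjusted p-values were those of Solyc03g098290.4 and Solyc02g081300.3, at 0.256 and 0.270. For these IDs the authors' deposited tables gave 0.25 and 0.24 in miR156-OE, both with an unadjusted p under 0.05, and 0.64 and 0.70 in rSBP15, where neither passed the threshold. Between the lines, 0 of the 10 IDs passed at the largest variance of the 4 libraries and 3 with all 6 libraries at their largest variance, all higher in rSBP15, beside 0% and 14.4% of all genes (7.39% counting rises alone).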

How the data were processed

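RNA from 6 pooled bud samples, 2 per genotype, was sequenced from stranded poly(A) libraries, per the labels' protocols. HISAT2 and StringTie are named in the submitters' processing notes, without versions. For each comparison the authors deposited, per the file headers, the log fold change of every gene with its p-value. Build, annotation, filters and test are not given in the sources used here. Nothing states that the 2 samples of a genotype came from separate plantings, so p-values measure only the spread between these samples, which may be technical.

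The Benjamini-Hochberg adjustment covered the genes with a log fold change other than 0. Standard errors were recovered as under limma's moderated test (limma 3.58.1, R 4.3.3): 1262 genes in the rSBP15 table and 1224 in the miR156-OE table lay within 1e-06 in p of the curve for genes detected in 1 library, which fixed the prior (0.360 and 0.347 degrees of freedom). In a fit of 2 libraries against 2, groups cannot overlap when the difference exceeds 1.41 standard errors. Both tables were taken to share the MT libraries, since the 402 genes with an equal log fold change other than 0 in both were all below 0. That gave the bounds on library spread (chosen after the data were seen) and the comparison of the lines, with 2 residual degrees of freedom, or 3 for all 6 libraries. The recovery was tried on data simulated under limma's own model, which cannot show whether the authors used that test.

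Names were matched to the RefSeq table by symbol or synonym for 10 of 10 genes, and 0 IDs matched it directly. The link from name to ID was checked by chromosome number alone, which was the same for all 10 genes. All 10 genes are reported. Of the further IDs, those past the threshold were named, or else the 2 with the smallest adjusted p. Genes, lists and tests were chosen with earlier results of these data known.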

Additional observations from a re-analysis of the deposited data

How the results depend on the processing

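No paired analysis was possible because single libraries are not listed in either table, and for the same reason no replicate was left out in turn. All alternatives change the test alone, so no direction changed. In rSBP15 against MT, 3 of the 9 detected genes passed. With the moderation refitted, or with all 6 libraries fitted at their largest variance, SUS3 was added, which made 4. At the smallest variance of all 6 libraries there were 6, with 7 at an unadjusted p under 0.05, and 0 with all rows in the adjustment, with no moderation or at a threshold of 0.01. In miR156-OE against MT the number was 0 as reported and in the other fits, and 2 at an unadjusted p under 0.05. Between the lines it was 0 as reported, 1 at the mean residual variance (SUS1), 4 and 6 in the 6-library fits at the largest and smallest variance, and 7 unadjusted. Of the further IDs, 1 passed in rSBP15 as reported and again with all rows in the adjustment. There were 3 refitted, 4 and 5 in the 6-library fits, 6 unadjusted and 0 with no moderation. In miR156-OE 0 passed, and 2 unadjusted. Between the lines it was 0 as reported, then 1, 3, 4 and 5 under the same settings as for the 9 genes. The cause of these shifts was not tested. No share of all genes was counted with all rows adjusted, without moderation, at a threshold of 0.01 or at the mean residual variance. Counts in those settings thus cannot be set against all genes. With 2 samples per genotype, and depth unknown, a gene that missed the threshold was not shown to be unchanged.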

Other observations

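The recovered standard error was larger in the miR156-OE table than in the rSBP15 table for 8 of the 9 detected genes, the exception being SUT4. The same held for 64.9% of the 24592 genes detected in both comparisons, and the median standard error over all detected genes was 0.0514 for rSBP15 and 0.0624 for miR156-OE, so this direction was common in these libraries. With the MT libraries taken as shared, the excess lies in the miR156-OE libraries, which were further apart than the rSBP15 libraries for each of the 8 genes. The excess was slight for SUT2 and LIN8, with standard errors of 0.0259 and 0.0160 in miR156-OE against 0.0257 and 0.0158 in rSBP15. The gap between the 2 miR156-OE libraries was at least 0.326 for SUT1, 0.244 for SUS3, 0.226 for LIN6, 0.163 for TIV1 and 0.105 for SUS1 on the log scale. For LIN7, SUT2 and LIN8 it was at least 0.0686, 0.0072 and 0.0046. The gap between the 2 rSBP15 libraries was at most 0.0999 for SUT1, 0.354 for SUS3, 0.126 for LIN6, 0.0983 for TIV1 and 0.178 for SUS1. For LIN7, SUT2 and LIN8 it was at most 0.0782, 0.0513 and 0.0316. For SUT1, LIN6 and TIV1 even the smallest possible miR156-OE gap exceeded the largest possible rSBP15 gap. The share of all genes with gaps apart in this way was not counted.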
